A study of Mus musculus with 11 samples.

Results

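The 10 genes described here mark the granule cell lineage of the cerebellum: Pax6, Zic1, Zic2, Zic4, Barhl1, Cntn2, Reln, Cbln3, Gabra6 and Rbfox3. They were taken by symbol, and all 10 were found among the 38406 genes of the count table. All 10 were also among the 15228 genes that passed the filter on low counts, although Barhl1 reached the filter's limit of 1.38 CPM, the counts of a gene scaled to library size, in only 3 libraries of 2 groups and Zic2 in 6 libraries of 3 groups. They were chosen for their known place in the lineage and not by a threshold on any value, but with earlier results of these data known. Expression was profiled by 3′ mRNA sequencing in 11 libraries from cerebellar tumours of CD1 mice, in 4 models of medulloblastoma. In the N1ICD tumours (n = 3), expression of MYC, Gfi1 and N1ICD, which is the active intracellular part of the receptor Notch1, was restricted to Math1-positive cells. In the S100b-cell tumours (n = 3), MYC and Gfi1 were expressed in S100b-positive cells. The MYC-Otx2 tumours (n = 3) carried MYC and Otx2, and the MYC-Gfi1 tumours (n = 2) carried MYC and Gfi1, both expressed constitutively. MYC is shared by all 4 groups, and Gfi1 by all but the MYC-Otx2 tumours. The age of the mice, the way the genes were delivered and the promoters used are not given in the labels, and nothing states that each tumour came from its own animal, so p-values measure only the spread between these libraries.

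Granule cells are the small glutamatergic neurons that fill the inner layer of the cerebellar cortex and make up most of its cells. Their progenitors express the transcription factor Math1, encoded by Atoh1, and divide at the surface of the young cerebellum under the influence of Sonic hedgehog. Once they leave the cell cycle they express Cntn2 for a short time while they extend axons, migrate inwards along Bergmann glia, and then turn on the synaptic genes of the mature cell, among them Gabra6 and Cbln3. Pax6, Barhl1 and the Zic factors are expressed in progenitors and several of them persist in the mature neuron. Because normal granule cells lie beside a cerebellar tumour, the same transcripts can come from tumour cells or from normal tissue taken with them, and in bulk RNA fewer cells of a type and less RNA per cell cannot be told apart.

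Libraries held 2.58 to 3.38 M counts in the N1ICD tumours, 12.77 to 15.19 M in the S100b-cell tumours, 6.97 to 8.33 M in the MYC-Otx2 tumours, and 7.53 and 6.53 M in the MYC-Gfi1 tumours. Mitochondrially encoded genes took 23.25% to 27.6% of counts in the N1ICD tumours and 14.73% to 18.53% in the S100b-cell tumours, against 5.18% to 5.74% in the MYC-Otx2 tumours and 5.96% to 6.0% in the MYC-Gfi1 tumours. The library names in the labels follow 3 styles, 1 for the N1ICD tumours, 1 for the S100b-cell tumours and 1 shared by both constitutive groups. Between these sets, library set and model cannot be told apart, except between the MYC-Otx2 and MYC-Gfi1 tumours. Levels below are CPM over scaled totals of the tested genes, and 3 counts, taken as the limit that a count of 0 allows, came to 1.05 to 1.29 CPM in the N1ICD libraries but only 0.194 to 0.235 CPM in the S100b-cell libraries. These limits cover counting error only. Within groups, Spearman correlations between libraries were 0.808 to 0.907 in the N1ICD tumours, 0.912 to 0.946 in the S100b-cell group and 0.95 to 0.952 in the MYC-Otx2 tumours, and the MYC-Gfi1 pair correlated at 0.816.

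Most of the 10 genes were highest in the same library. MYC-Gfi1 replicate 2 had the highest level of all 11 libraries in 8 of the 10 genes, and the exceptions were Pax6, highest in N1ICD replicate 1, and Barhl1, highest in S100b-cell replicate 2. Within their own groups, N1ICD replicate 1 was highest in 9 of the 10 genes, S100b-cell replicate 2 in 8 and MYC-Otx2 replicate 2 in 8, while MYC-Gfi1 replicate 2 exceeded replicate 1 in all 10. The count of genes above 10 CPM was 8 in MYC-Gfi1 replicate 2 and 7 in MYC-Otx2 replicate 2, and it was 0 in N1ICD replicate 2. Values are given throughout in the order of the replicate numbers.

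**Figure D1:**
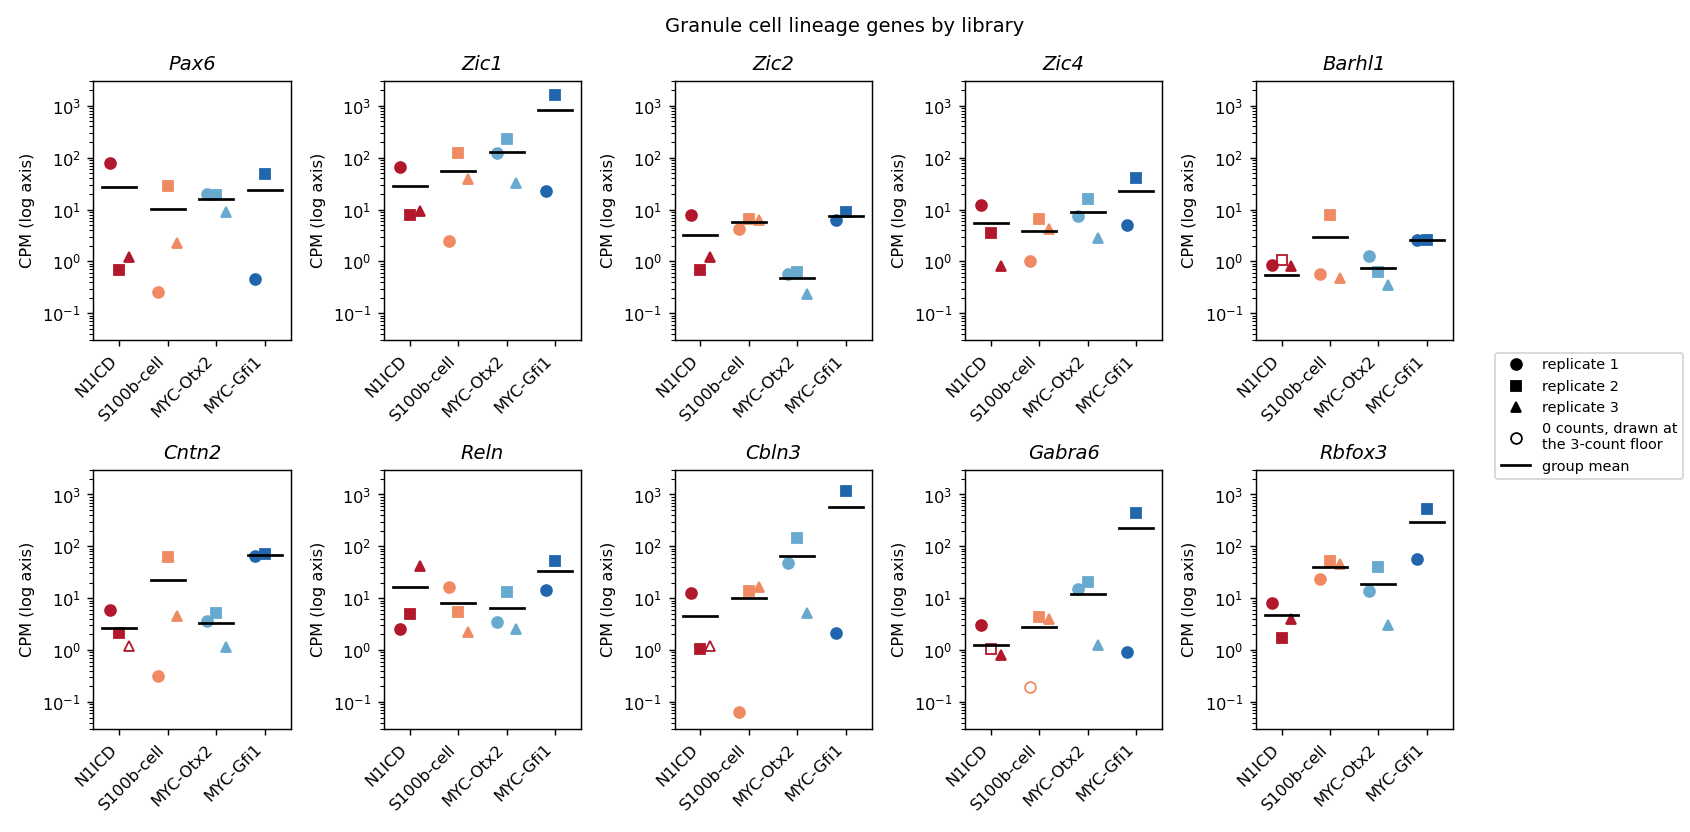
Level of each granule lineage gene in each of the 11 libraries, in CPM on a log axis; symbols give the replicate, bars the group mean, and open symbols libraries with 0 counts, drawn at their limit of 3 counts. MYC-Gfi1 replicate 2 reached 1626 CPM of Zic1, 1159 CPM of Cbln3 and 446 CPM of Gabra6, while MYC-Gfi1 replicate 1 had 22.8, 2.10 and 0.933 CPM of the same genes.

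The zinc finger factors of the Zic family are expressed in granule progenitors and neurons, where they are needed for normal cerebellar growth. Zic1 (chromosome 9, 91358058 to 91365810, minus strand, mm10) had 66.9, 7.67 and 9.33 CPM in the N1ICD tumours, 2.52, 123 and 39.1 CPM in the S100b-cell group, 126, 229 and 32.5 CPM in the MYC-Otx2 tumours, and 22.8 and 1626 CPM in the MYC-Gfi1 tumours. Its counts thus ran from 22 in N1ICD replicate 2 to 11198 in MYC-Gfi1 replicate 2, and the ranges of all neighbouring groups overlapped. The 71.2-fold gap between the MYC-Gfi1 libraries was wider than the difference between any pair of group means. Against the MYC-Gfi1 tumours, the log2 fold change of Zic1 was -4.89 ± 1.79 (SE) in the N1ICD tumours, -3.91 ± 1.71 in the S100b-cell tumours and -2.68 ± 1.64 in the MYC-Otx2 tumours, and none passed at 0.05 (edgeR adjusted p = 0.0998, 0.198 and 0.303). Without MYC-Gfi1 replicate 2 the same values were 0.27, 1.27 and 2.50, so the direction in all 3 comparisons rested on that library. Without MYC-Gfi1 replicate 1, which left only replicate 2 in that group, Zic1 was at -5.87 in the N1ICD tumours.

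Zic4 lies head to head with Zic1 on the opposite strand (chromosome 9, 91362413 to 91389348, plus strand), and their annotated bodies overlap by 3398 bases, but neither gene's 3′ end, where the tags fall, lies inside the other. It had 12.4, 3.49 and 0.812 CPM in the N1ICD tumours, 1.04, 6.43 and 4.14 CPM in the S100b-cell group, 7.63, 15.9 and 2.77 CPM in the MYC-Otx2 tumours, and 5.13 and 40.7 CPM in the MYC-Gfi1 tumours. The highest and lowest libraries of each group were those of Zic1, apart from N1ICD replicates 2 and 3, and no comparison passed. The ratio of Zic1 to Zic4 counts was not constant, running from 2.2 to 40.0 over the 10 libraries with at least 5 counts of each gene. The strand setting of the counting is not known.

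Zic2 (chromosome 14, 122475435 to 122479852, plus strand) behaved differently from its relatives. It had 7.72, 0.697 and 1.22 CPM in the N1ICD tumours, 4.14, 6.43 and 6.33 CPM in the S100b-cell group, 0.565, 0.623 and 0.231 CPM in the MYC-Otx2 tumours, and 6.29 and 8.86 CPM in the MYC-Gfi1 tumours. Every library of the other 3 groups lay above every MYC-Otx2 library, and MYC-Gfi1 replicates 1 and 2 differed by only 1.41 times. The MYC-Otx2 libraries held 4, 5 and 2 counts of Zic2, against 64, 93 and 81 in the S100b-cell libraries and 54 and 61 in the MYC-Gfi1 libraries. The shallower N1ICD libraries held 18, 2 and 3 counts. N1ICD replicates 2 and 3 were thus at or under the limit of 3 counts, and their place above the MYC-Otx2 libraries is uncertain. Zic2 was higher in the S100b-cell tumours than in the MYC-Otx2 tumours, with a log2 fold change of 3.54 ± 0.88 (SE, edgeR adjusted p = 0.0238). It was lower in the MYC-Otx2 tumours than in the MYC-Gfi1 tumours, at -3.97 ± 0.93 (SE, edgeR adjusted p = 0.0415). The N1ICD value against the MYC-Otx2 tumours, 2.72 ± 0.89 (SE), missed the threshold (edgeR adjusted p = 0.0532). 

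The Zic2 calls kept their direction and about their size when libraries were left out, but not their side of the threshold. The S100b-cell call was lost without S100b-cell replicate 2 or 3, at 3.43 and 3.45, and without MYC-Otx2 replicate 1, 2 or 3, at 3.68, 3.79 and 3.21 (edgeR adjusted p = 0.0605, 0.0623, 0.0683, 0.065 and 0.0843). The MYC-Otx2 call was lost in a fit of the MYC-Otx2 and MYC-Gfi1 groups alone, at -3.94 (edgeR adjusted p = 0.0522). It was also lost without MYC-Otx2 replicate 1, 2 or 3, at -4.11, -4.22 and -3.63, and without MYC-Gfi1 replicate 2, at -3.70 (edgeR adjusted p = 0.116, 0.0858, 0.13 and 0.114). The N1ICD difference from the MYC-Otx2 tumours passed without N1ICD replicate 2 or 3, at 3.21 and 3.11 (edgeR adjusted p = 0.032 and 0.0468). Against the MYC-Gfi1 tumours, Zic2 was called lower in the N1ICD tumours without N1ICD replicate 1, at -2.98 against -1.25 with it (edgeR adjusted p = 0.0339 and 0.365).

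Pax6, a paired homeodomain factor of granule progenitors and neurons (chromosome 2, 105668900 to 105697364, plus strand), had 79.7, 0.697 and 1.22 CPM in the N1ICD tumours, 0.259, 28.2 and 2.27 CPM in the S100b-cell group, 19.8, 19.4 and 9.13 CPM in the MYC-Otx2 tumours, and 0.466 and 47.8 CPM in the MYC-Gfi1 tumours. It varied over 100-fold within each of the N1ICD, S100b-cell and MYC-Gfi1 groups, with 1 high library in each, but only 2.17-fold among the MYC-Otx2 tumours. All 4 ranges overlapped. Its fold changes against the MYC-Gfi1 tumours were small, at 0.17 ± 2.06, -1.23 ± 2.01 and -0.58 ± 2.02 (log2, SE) in the N1ICD, S100b-cell and MYC-Otx2 tumours, and without MYC-Gfi1 replicate 2 they were 5.80, 4.42 and 5.07, with none called (edgeR adjusted p = 0.967, 0.753 and 0.874 with that library). Without N1ICD replicate 1, the N1ICD value was -4.65 against the MYC-Gfi1 tumours, -3.41 against the S100b-cell tumours and -4.07 against the MYC-Otx2 tumours, where it was 0.17, 1.40 and 0.75 with it. The antisense gene Pax6os1, which overlaps the start of Pax6, had 0 to 15 counts per library.

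Barhl1, a homeodomain factor that acts downstream of Atoh1 in granule neurons and their progenitors (chromosome 2, 28907679 to 28916668, minus strand), had the fewest counts of the 10. It had 0.857, 0 and 0.812 CPM in the N1ICD tumours, 0.582, 7.81 and 0.469 CPM in the S100b-cell group, 1.27, 0.623 and 0.347 CPM in the MYC-Otx2 tumours, and 2.56 and 2.61 CPM in the MYC-Gfi1 tumours. S100b-cell replicate 2 held 113 counts, and no other library held more than 22. Both MYC-Gfi1 libraries lay above every N1ICD and MYC-Otx2 library, but the differences did not pass, at -2.23 ± 1.44 and -1.79 ± 1.28 (log2, SE, edgeR adjusted p = 0.323 and 0.379). In the N1ICD libraries these levels are at or under the limit of 3 counts.

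Cntn2 and Reln belong to the migrating cell and its surroundings. Cntn2 encodes contactin-2, also called TAG-1, a membrane-anchored adhesion protein carried by newly postmitotic granule neurons (chromosome 1, 132509427 to 132543256, minus strand). It had 6.00, 2.09 and 0 CPM in the N1ICD tumours, 0.324, 61.3 and 4.54 CPM in the S100b-cell group, 3.67, 5.11 and 1.16 CPM in the MYC-Otx2 tumours, and 64.3 and 71.3 CPM in the MYC-Gfi1 tumours. The MYC-Gfi1 libraries lay above every other library and within 1.11 times of each other, S100b-cell replicate 2 came close to them, and the remaining 8 libraries were at 6.00 CPM or less. The log2 fold change against the MYC-Gfi1 tumours was -4.66 ± 1.70 (SE) in the N1ICD tumours and -4.35 ± 1.61 in the MYC-Otx2 tumours, and neither passed (edgeR adjusted p = 0.0985 and 0.122). In the S100b-cell tumours it was -1.62 ± 1.48 (SE, edgeR adjusted p = 0.55). Unlike most of the other genes, Cntn2 kept these values without MYC-Gfi1 replicate 2, at -4.60, -4.27 and -1.57 in the same order of groups. In a fit of the MYC-Otx2 and MYC-Gfi1 groups alone it was called, at -4.33 (edgeR adjusted p = 0.0341).

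Reln encodes reelin, a large secreted glycoprotein that granule cells release and that guides the placement of Purkinje cells (chromosome 5, 21884454 to 22344702, minus strand). It had 2.57, 4.88 and 41.4 CPM in the N1ICD tumours, 16.6, 5.46 and 2.27 CPM in the S100b-cell group, 3.53, 13.2 and 2.54 CPM in the MYC-Otx2 tumours, and 14.7 and 53.0 CPM in the MYC-Gfi1 tumours. Its order of libraries was not that of the other genes: the highest N1ICD library was replicate 3 and the highest S100b-cell library replicate 1, neither of which was the highest of its group in any of the other 9 genes. The MYC-Otx2 libraries all lay below both MYC-Gfi1 libraries, with a log2 fold change of -2.39 ± 1.21 that did not pass (SE, edgeR adjusted p = 0.221). Against the MYC-Gfi1 tumours it was -1.06 ± 1.20 in the N1ICD tumours and -2.06 ± 1.20 in the S100b-cell tumours (SE, edgeR adjusted p = 0.59 and 0.329). The N1ICD value was 0.14 without MYC-Gfi1 replicate 2.

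The mature granule cell was represented by Cbln3 and Gabra6. Cbln3 encodes cerebellin-3, a secreted synaptic organizer that pairs with cerebellin-1 in granule cells (chromosome 14, 55878913 to 55884392, minus strand). It had 12.9, 1.05 and 0 CPM in the N1ICD tumours, 0.0647, 13.7 and 16.1 CPM in the S100b-cell group, 47.7, 143 and 5.20 CPM in the MYC-Otx2 tumours, and 2.10 and 1159 CPM in the MYC-Gfi1 tumours. The MYC-Gfi1 libraries stood far apart, with 18 and 7979 counts, and the fold between them, 552, exceeded that of any other gene of the 10 within that group. Every MYC-Otx2 library was above MYC-Gfi1 replicate 1 and below MYC-Gfi1 replicate 2.

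Gabra6 encodes the alpha6 subunit of the GABA-A receptor, which in the cerebellum is confined to granule cells (chromosome 11, 42306437 to 42321072, minus strand). It had 3.00, 0 and 0.812 CPM in the N1ICD tumours, 0, 4.29 and 3.91 CPM in the S100b-cell group, 14.8, 20.3 and 1.27 CPM in the MYC-Otx2 tumours, and 0.933 and 446 CPM in the MYC-Gfi1 tumours. Apart from MYC-Gfi1 replicate 2, with 3074 counts, only MYC-Otx2 replicates 1 and 2 exceeded 5 CPM. S100b-cell replicate 1 had 0 counts in the deepest library of the study, which allows at most 0.194 CPM, while S100b-cell replicates 2 and 3 had 62 and 50 counts. Against the MYC-Gfi1 tumours the log2 fold change of Gabra6 was -7.51 ± 2.34 (SE) in the N1ICD tumours, -6.35 ± 2.08 in the S100b-cell tumours and -4.20 ± 1.90 in the MYC-Otx2 tumours, and none passed (edgeR adjusted p = 0.0645, 0.104 and 0.179). For Cbln3 these were -7.00 ± 2.48, -5.87 ± 2.29 and -3.15 ± 2.06 (SE, edgeR adjusted p = 0.0909, 0.154 and 0.333). Without MYC-Gfi1 replicate 2 all 6 values turned positive, at 0.38, 1.54 and 3.68 for Gabra6 and 1.09, 2.24 and 4.95 for Cbln3. Leaving out MYC-Gfi1 replicate 1 left only replicate 2 in that group. Gabra6 was then at -8.51 in the N1ICD tumours and -7.33 in the S100b-cell tumours, and Cbln3 at -8.00 in the N1ICD tumours.

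Rbfox3 encodes the splicing regulator known as NeuN, which marks the nuclei of most postmitotic neurons, granule cells included (chromosome 11, 118489762 to 118911597, minus strand). It had 8.15, 1.74 and 4.06 CPM in the N1ICD tumours, 23.2, 52.8 and 46.3 CPM in the S100b-cell group, 13.6, 39.1 and 3.00 CPM in the MYC-Otx2 tumours, and 57.6 and 527 CPM in the MYC-Gfi1 tumours. Both MYC-Gfi1 libraries lay above all 9 others, and all 3 S100b-cell libraries lay above all 3 N1ICD libraries. Rbfox3 was lower in the N1ICD tumours, at 4.65 ± 3.24 CPM (SD, n = 3), than in the MYC-Gfi1 tumours, at 292 ± 332 CPM (SD, n = 2), a log2 fold change of -5.99 ± 1.20 (SE, edgeR adjusted p = 0.0164). This was the only one of the 10 genes called between these groups. The call was lost without N1ICD replicate 2 or 3, at -5.58 and -5.91, and without MYC-Gfi1 replicate 2, at -3.66 (edgeR adjusted p = 0.0515, 0.0537 and 0.0836).

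In the MYC-Otx2 tumours, Rbfox3 was at -3.98 ± 1.07 against the MYC-Gfi1 tumours (log2, SE, edgeR adjusted p = 0.0572). Without MYC-Gfi1 replicate 1, which left only replicate 2 in that group, it was at -4.81. The S100b-cell value was -2.84 ± 1.02 against the MYC-Gfi1 tumours (SE, edgeR adjusted p = 0.129), and -3.67 without MYC-Gfi1 replicate 1. Between the N1ICD and S100b-cell tumours the change was -3.15 ± 1.06 and did not pass (SE, edgeR adjusted p = 0.155).

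The first comparison set the N1ICD tumours, which add N1ICD and a restriction to Math1-positive cells, against the MYC-Gfi1 tumours. Of all genes tested, 11.5% were called, 6.05% as lower, and of the 10 lineage genes 1 was called, Rbfox3. Of the 10 fold changes 9 were below 0, with a median of -3.45 against -0.011 over all genes tested. Without MYC-Gfi1 replicate 2, 4 of the 10 were below 0 and their median was 0.12. In 3 of the 10, Barhl1, Cntn2 and Rbfox3, every N1ICD library lay below both MYC-Gfi1 libraries, where 19.8% of all genes did so.

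The second comparison, between the S100b-cell and MYC-Gfi1 tumours, asks about the cell in which MYC and Gfi1 are expressed. Here 4.35% of all genes were called and none of the 10 in edgeR, with 4 under an unadjusted p of 0.05, while DESeq2 called Gabra6, Rbfox3 and Zic1. The median fold change of the 10 was -2.31, against 0.0094 over all genes, and it was 0.032 without MYC-Gfi1 replicate 2. Cntn2 and Rbfox3 were lower without overlap, 2 of 10, where 18.9% of all genes were.

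Between the N1ICD and S100b-cell tumours, the models with restricted expression, 1.21% of all genes were called and none of the 10 in edgeR, with 1 under an unadjusted p of 0.05, and DESeq2 called Rbfox3. The median of the 10 was -1.06, against -0.057 over all genes, and it was 0.091 without S100b-cell replicate 2 and -2.84 without N1ICD replicate 1. Rbfox3 alone did not overlap, 1 of 10, where 15.1% of all genes were lower without overlap.

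Against the MYC-Otx2 tumours, 21.8% of all genes were called in the N1ICD tumours and none of the 10 in edgeR, with 1 under an unadjusted p of 0.05, Zic2, which DESeq2 called. In the S100b-cell tumours 17.9% of all genes were called, 10% as higher, and 1 of the 10, Zic2. The medians of the 10 were -0.56 in the N1ICD tumours and -0.16 in the S100b-cell tumours, against 0.14 and 0.17 over all genes. Zic2 was the only one of the 10 without overlap in either comparison, where 20.7% and 28.6% of all genes were higher without overlap. For the N1ICD tumours this rested on 2 and 3 counts of Zic2 in replicates 2 and 3.

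Between the constitutive models, 5.46% of all genes were called, 3.03% as lower in the MYC-Otx2 tumours, and 1 of the 10, Zic2. All 10 fold changes were below 0, with a median of -2.91 against -0.14 over all genes. The count below 0 was 5 and the median -0.20 without MYC-Gfi1 replicate 2. In 5 of the 10, Zic2, Barhl1, Cntn2, Reln and Rbfox3, every MYC-Otx2 library lay below both MYC-Gfi1 libraries, where 23.6% of all genes did so. The 3 comparisons against the MYC-Gfi1 tumours share those 2 libraries, so their values are not independent.

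**Figure D2:**
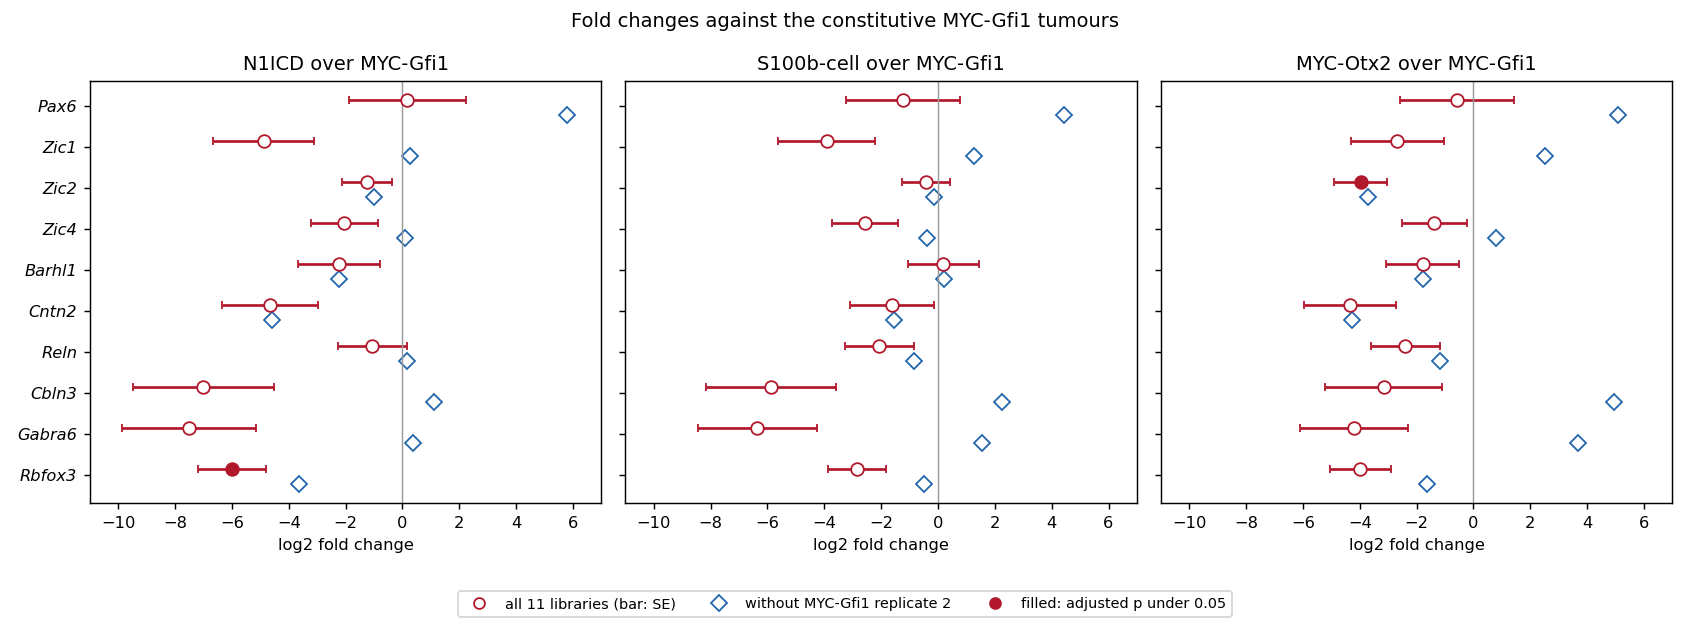
Log2 fold changes of the 10 genes against the MYC-Gfi1 tumours, with all 11 libraries (circles, bars give the SE) and without MYC-Gfi1 replicate 2 (diamonds); filled symbols passed an adjusted p of 0.05. Zic2, Barhl1 and Cntn2 hardly moved when that library was left out, while Pax6, Zic1, Cbln3 and Gabra6 moved by more than 5 on the log2 scale.

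Other genes of the lineage were read from lists of early and of mature granule cell genes. Atoh1, which defines the progenitor and encodes the Math1 that the labels of the N1ICD tumours name, had at most 8 counts, in MYC-Gfi1 replicate 1, and was not tested. Of the 16 early genes, 14 were tested. Neurod1, a helix-loop-helix factor needed for granule cell differentiation, was the only one of the 14 called between the N1ICD and MYC-Gfi1 tumours, where 11.5% of all genes were called and 6.05% were lower. It was at 6.43, 0.349 and 0.406 CPM in the N1ICD tumours, against 83.0 and 482 CPM in the MYC-Gfi1 tumours. Its log2 fold change was -6.93 ± 1.68 (SE, edgeR adjusted p = 0.0299), and the call was lost without N1ICD replicate 2 or 3 and without MYC-Gfi1 replicate 2, at -6.37, -6.42 and -5.17 (edgeR adjusted p = 0.0829, 0.0877 and 0.113). It was also lost with no low-count filter, with the replicate block and in the fit of these groups alone, at -6.96, -5.80 and -6.91 (edgeR adjusted p = 0.0903, 0.0695 and 0.107). 

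Against the MYC-Otx2 tumours, where 12% of all genes were called higher, 3 of the 14 early genes were so in the N1ICD tumours: the guidance molecule Sema6a, the homeodomain factor Meis2 and the netrin receptor Unc5c. In all of these N1ICD replicate 1 was far above the other N1ICD libraries. Sema6a had 221, 2.44 and 25.6 CPM in the N1ICD tumours, against 2.54, 2.62 and 0.578 CPM in the MYC-Otx2 tumours, so that the groups overlapped, and its log2 fold change of 5.44 ± 1.33 (SE, edgeR adjusted p = 0.0191) was 2.87 without N1ICD replicate 1 (edgeR adjusted p = 0.0494). Meis2 had 183, 3.14 and 2.43 CPM in the N1ICD tumours, against 0.848, 2.24 and 0.809 CPM in the MYC-Otx2 tumours, and without N1ICD replicate 1 its log2 fold change was 1.10 in place of 5.58 (edgeR adjusted p = 0.34 and 0.0298). Unc5c was at 1.34 without that library and 3.10 with it (edgeR adjusted p = 0.248 and 0.0451). The calls of Sema6a and Meis2 were also lost without MYC-Otx2 replicate 1, 2 or 3, with values of 5.0 to 6.22, and that of Unc5c without MYC-Otx2 replicate 1 or 3, at 2.80 and 2.73.

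Of the 16 mature genes, 14 were tested, and in the N1ICD tumours 7 were called lower than in the MYC-Gfi1 tumours, against 6.05% of all genes, with none higher. The median fold change of the 14 was -6.22. Among them were Grin2c, the NMDA receptor subunit of mature granule cells, at -7.18 ± 1.51, the vesicle regulator Cadps2, at -5.60 ± 1.38, and the calcium-binding protein Calb2, at -6.81 ± 1.69 (log2, SE, edgeR adjusted p = 0.0192, 0.0314 and 0.0322). No call remained in edgeR without MYC-Gfi1 replicate 2, with 2 under an unadjusted p of 0.05, and the median was -2.70. The count was 1 with no low-count filter, and 0 with the replicate block and in the fit of these groups alone, where 10 and 12 were under an unadjusted p of 0.05 in edgeR. Without N1ICD replicate 2 or 3, too, none of the mature genes was called in edgeR, with 12 under an unadjusted p of 0.05 in each case, and without N1ICD replicate 1 the count was 4, with Cadps2 and Calb2 not among them.

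Grin2c was at 1.29, 0.349 and 0 CPM in the N1ICD tumours, against 8.16 and 149 CPM in the MYC-Gfi1 tumours. Cadps2 differed in pattern from most of the other mature genes, since the MYC-Otx2 tumours carried it evenly. Tiam1 was also fairly even there, at 77.0, 149 and 103 CPM. Cadps2 had 1.29, 0.349 and 1.62 CPM in the N1ICD tumours and 0.0647, 3.11 and 1.56 CPM in the S100b-cell tumours. It had 29.5, 35.3 and 26.0 CPM in the MYC-Otx2 tumours, and 5.83 and 98.5 CPM in the MYC-Gfi1 tumours. The N1ICD and S100b-cell tumours were both called lower than the MYC-Otx2 tumours. Their log2 fold changes were -4.81 ± 1.31 and -4.25 ± 1.17 (SE, edgeR adjusted p = 0.0286 and 0.0338). The N1ICD call was lost when any of its 6 libraries was left out, with values of -5.23 to -4.36, and the S100b-cell call was lost in all such fits but the one without S100b-cell replicate 1, with values of -5.22 to -4.13 where it was lost.

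Reelin signals through the receptors Lrp8 and Vldlr and the adaptor Dab1 to kinases of the Src family and to Cdk5. All 10 genes of this list were tested. Cdk5r1, which encodes the activator p35 of Cdk5, had 15.4, 23.4 and 20.7 CPM in the N1ICD tumours, 33.5, 104 and 27.8 CPM in the S100b-cell group, 141, 233 and 133 CPM in the MYC-Otx2 tumours, and 301 and 628 CPM in the MYC-Gfi1 tumours. The groups did not overlap, and the order ran upwards as given. Cdk5r1 was lower in the N1ICD tumours than in the MYC-Gfi1 tumours, at -4.55 ± 0.60, and than in the MYC-Otx2 tumours, at -3.09 ± 0.55 (log2, SE, edgeR adjusted p = 0.00477 and 0.00521), and both calls held when any single library was left out. In the S100b-cell tumours it was lower than in the MYC-Gfi1 tumours, at -3.07 ± 0.56 (SE, edgeR adjusted p = 0.0247), a call lost without S100b-cell replicate 1 or 3 or without MYC-Gfi1 replicate 2, at -2.85, -2.75 and -2.43 (edgeR adjusted p = 0.0837, 0.0795 and 0.114).

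The receptor Vldlr had 6.43, 5.93 and 11.4 CPM in the N1ICD tumours and 9.83, 4.91 and 6.96 CPM in the S100b-cell tumours, against 29.8, 24.7 and 23.7 CPM in the MYC-Otx2 tumours. It was lower than in the MYC-Otx2 tumours by -1.72 ± 0.53 in the N1ICD tumours and -1.85 ± 0.52 in the S100b-cell tumours (log2, SE, edgeR adjusted p = 0.0423 and 0.0352). The N1ICD call held only without N1ICD replicate 3, at -2.07, and the 5 other fits that left out a library gave -1.79 to -1.54. The S100b-cell call held only without S100b-cell replicate 1, at -2.18, and the 5 others gave -1.91 to -1.63. Reln, the ligand itself, was called in no comparison. In all, 1 of the 10 list genes was called lower in the N1ICD tumours against the MYC-Gfi1 tumours and 2 in the S100b-cell tumours. Of all genes, 6.05% and 2.01% were called lower there. Against the MYC-Otx2 tumours 2 were lower and 1 higher in the N1ICD tumours, where 9.76% of all genes were lower, and 2 lower in the S100b-cell tumours, where 7.89% of all genes were.

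Contactin-2 binds other adhesion molecules of the neuronal surface, and all 5 of the partners listed were tested. In the N1ICD tumours 3 of the 5 were called lower than in the MYC-Gfi1 tumours, against 6.05% of all genes. These were Nrcam, Nfasc and Cntn1, at -3.56 ± 0.84, -3.77 ± 1.01 and -3.85 ± 1.08 (log2, SE, edgeR adjusted p = 0.0273, 0.0401 and 0.0468). None of the 5 was called in edgeR without MYC-Gfi1 replicate 2, without N1ICD replicate 2 or without N1ICD replicate 3, where 2, 4 and 4 were under an unadjusted p of 0.05. The count was 1, Nrcam, with no low-count filter, and 0 in edgeR with the replicate block and in the fit of these groups alone, where 3 and 4 were under an unadjusted p of 0.05. Cntnap2, the partner of contactin-2 at myelinated axons, had 215, 0.697 and 3.25 CPM in the N1ICD tumours, against 1.98, 2.37 and 0.924 CPM in the MYC-Otx2 tumours. It was called higher there, at 5.37 ± 1.72 (log2, SE, edgeR adjusted p = 0.0498), and was at 0.15 without N1ICD replicate 1 (edgeR adjusted p = 0.936).

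Among 12 pan-neuronal genes, all tested, 4 were called lower in the N1ICD tumours and 3 in the S100b-cell tumours against the MYC-Gfi1 tumours, with medians of -5.35 and -4.07, where 6.05% and 2.01% of all genes were lower. Without MYC-Gfi1 replicate 2 the counts were 2 and 0 in edgeR (4 and 2 under an unadjusted p of 0.05) and the medians -3.01 and -1.50. Camk2b, a calcium-dependent kinase subunit, and the synaptic vesicle protein gene Syp were at -5.20 ± 0.91 and -5.38 ± 0.98 in the N1ICD tumours (log2, SE, edgeR adjusted p = 0.0109 and 0.0119). Their calls held when any single library was left out. In fits of the compared groups alone none of the 12 was called in edgeR in either comparison, with 11 and 5 under an unadjusted p of 0.05, and Camk2b and Syp were at -5.24 and -5.40 in the N1ICD tumours (edgeR adjusted p = 0.081 and 0.102).

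Several lists of markers of other cell types were also highest in MYC-Gfi1 replicate 2. In MYC-Gfi1 replicate 2 the summed level of the 16 mature granule cell genes, which include none of the 10, was 3580 CPM, against 253 CPM in replicate 1. In the other groups it ran from 40.8 to 137 CPM in the N1ICD tumours, 161 to 195 CPM in the S100b-cell group and 152 to 463 CPM in the MYC-Otx2 tumours. The 10 Purkinje cell genes summed to 2431 CPM in MYC-Gfi1 replicate 2, against 53.0 CPM in replicate 1, and to 31.3 to 213 CPM in the other 9 libraries. In that library Calb1 was at 440 CPM, Rgs8 at 660 CPM, Car8 at 402 CPM and Pvalb at 482 CPM. Itpr1 was at 286 CPM, Slc1a6 at 105 CPM and Ppp1r17 at 47.6 CPM. Foxp2 was lower than in replicate 1, at 8.13 against 23.1 CPM, and Pcp2 and Skor2 had 0.145 CPM and 0. 

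Pcp2 and Skor2 stayed at or near 0 in the other libraries as well. Why they were so low in MYC-Gfi1 replicate 2, beside the high Purkinje cell genes there, was not tested. The oligodendrocyte genes summed to 844 CPM in MYC-Gfi1 replicate 2, against 275 CPM in replicate 1 and 34.8 to 185 CPM elsewhere. GABAergic interneuron genes summed to 260 CPM, against 8.74 CPM in replicate 1 and at most 36.5 CPM elsewhere, and pan-neuronal genes to 3574 CPM, against 843 CPM in replicate 1 and at most 631 CPM elsewhere. The 9 astroglial genes summed to 1441 CPM in this library, against 306 CPM in replicate 1. The part of normal cerebellum in the values of MYC-Gfi1 replicate 2 was not tested.

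N1ICD replicate 1, the library highest in Pax6, was the highest of all in astroglial and Bergmann glial genes, with 3034 CPM, against 67.3 and 235 CPM in N1ICD replicates 2 and 3. Slc1a3, a glutamate transporter of Bergmann glia, made up 1402 CPM and Fabp7, a fatty acid binding protein of radial glia, 1058 CPM. Gdf10, Aqp4, Aldh1l1 and Hopx were also highest of the group there. Gfap, S100b and Slc1a2 were instead the lowest of the group, at 10.3, 11.1 and 4.29 CPM. In N1ICD replicates 2 and 3 Gfap had 16.7 and 33.3 CPM, S100b 18.5 and 30.4 CPM, and Slc1a2 9.76 and 14.6 CPM. The early granule genes of N1ICD replicate 1 summed to 675 CPM, against 46.4 and 72.2 CPM in N1ICD replicates 2 and 3. Sema6a at 221 CPM and Meis2 at 183 CPM made up most of that sum, while Atoh1, Nhlh1 and Nhlh2 had 0 counts and Neurod1 was at 6.43 CPM. The mature granule genes summed to 137 CPM in this library, against 40.8 and 55.6 CPM in N1ICD replicates 2 and 3. Tiam1 alone made up 104, 22.0 and 40.2 CPM of these sums. The oligodendrocyte genes, at 62.6 CPM, were the lowest of the group, and the Purkinje genes, at 46.3 CPM, were near the 46.4 CPM of N1ICD replicate 2. The part of these cell types in the Pax6 level was not tested.

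**Figure D3:**
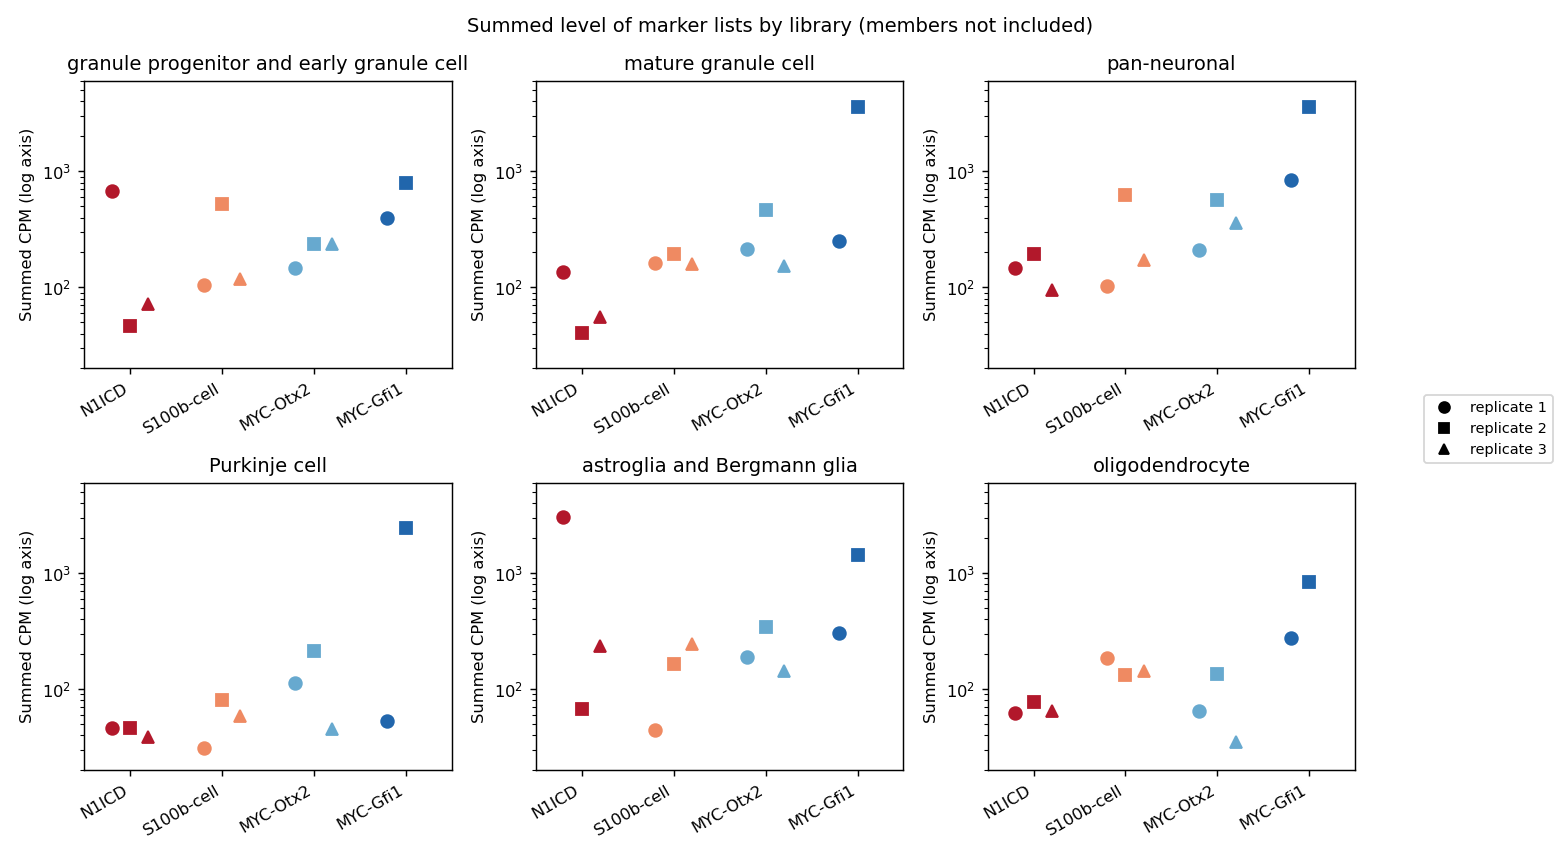
Summed CPM of 6 lists of cell type genes in each library, on a log axis; none of the 10 lineage genes is in a list. MYC-Gfi1 replicate 2 stood at 3580 CPM of mature granule and 2431 CPM of Purkinje cell genes, and N1ICD replicate 1 at 3034 CPM of astroglial genes.

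S100b-cell replicate 2, the highest of its group in 8 of the 10 genes, had 522 CPM of early granule genes, against 106 and 118 CPM in S100b-cell replicates 1 and 3. The sum of its mature granule genes, 195 CPM, was close to the 162 and 161 CPM of replicates 1 and 3. The genes behind these sums differed. In S100b-cell replicate 1, Etv1 at 107 CPM and Tiam1 at 41.5 CPM made up most of the sum. Only 9 of the 16 mature genes were detected there, against all 16 in replicates 2 and 3. In S100b-cell replicate 2, Neurod1 was at 123 CPM, Cntn2 at 61.3 CPM and Gabra6 at 4.29 CPM. MYC-Gfi1 replicate 1 had 83.0 CPM of Neurod1, 64.3 CPM of Cntn2 and 0.933 CPM of Gabra6, with 396 CPM of early and 253 CPM of mature granule genes. S100b-cell replicate 2 was close to it in Cntn2 but above it in Pax6, at 28.2 CPM against 0.466 CPM in MYC-Gfi1 replicate 1, in Zic1, at 123 against 22.8 CPM, and in Cbln3, at 13.7 against 2.10 CPM. MYC-Gfi1 replicate 2 had 71.3 CPM of Cntn2 but 446 CPM of Gabra6. The MYC-Gfi1 libraries were therefore alike in Cntn2, Zic2 and Barhl1 and unlike in the mature genes, Pax6 and Zic1.

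Ratios within a library show which of the genes moved in step without regard to their share of the RNA. They are ratios of 3′ tags, which are not divided by transcript length. Cbln3 and Gabra6 counts stood at 2.25 to 7.04 to 1 in the 8 libraries with at least 5 counts of each, a 3.13-fold span, although Gabra6 itself ran from 0.933 to 446 CPM over them. The ratio of Zic1 to Cbln3 ran from 1.40 to 10.9, a 7.76-fold span, over 8 libraries. By contrast the ratio of Pax6 to Cbln3 spanned 150-fold over 7 libraries, between 0.0412 in MYC-Gfi1 replicate 2 and 6.2 in N1ICD replicate 1. Cntn2 to Cbln3 spanned 859-fold over 8 libraries, with its highest value, 30.7, in MYC-Gfi1 replicate 1 and its lowest, 0.0357, in MYC-Otx2 replicate 2. The rule of 5 counts left N1ICD replicates 2 and 3 and S100b-cell replicate 1 out of all these ratios. They had 3, 0 and 1 counts of Cbln3, 0, 2 and 0 of Gabra6, and 22, 23 and 39 of Zic1. The spans therefore do not cover the libraries lowest in Cbln3.

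**Figure D4:**
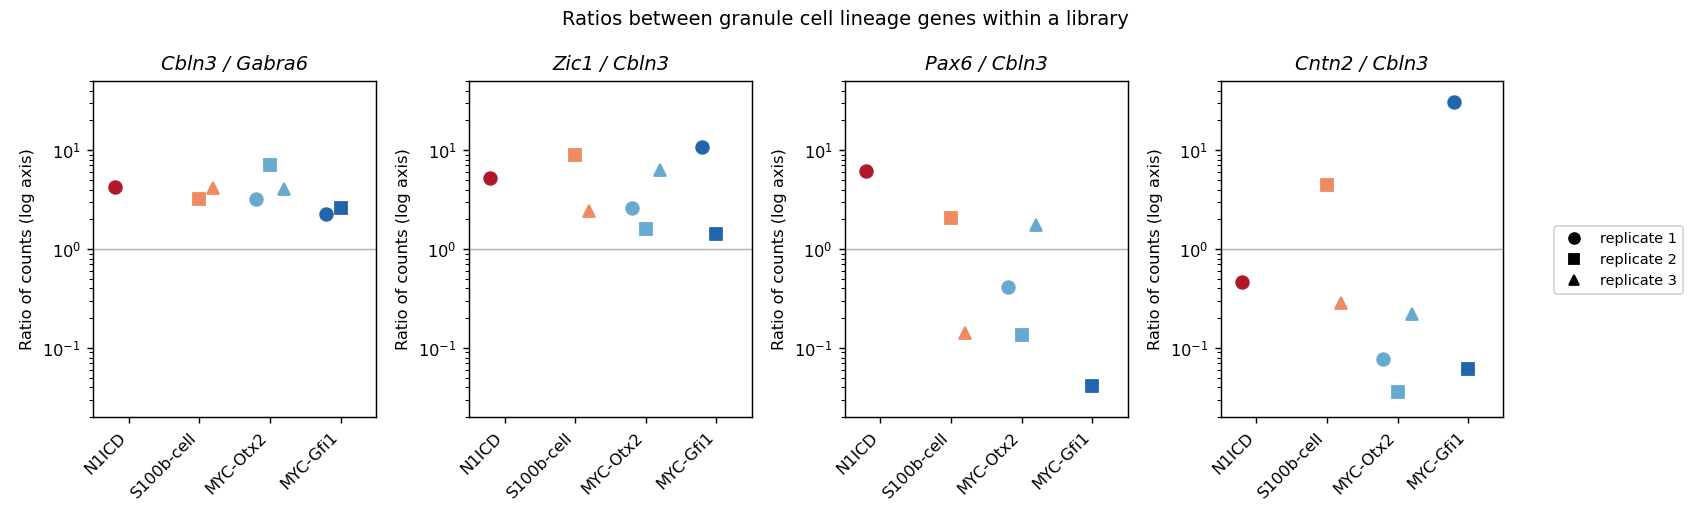
Ratios of counts between pairs of granule lineage genes within each library with at least 5 counts of both, on a log axis. Cbln3 to Gabra6 stayed between 2.25 and 7.04 in the 8 libraries shown, with N1ICD replicate 1 the only N1ICD library among them. Cntn2 to Cbln3 ran from 0.0357 to 30.7.

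Correlations over the 11 libraries, taken on log2 CPM, also put Zic1, Cbln3 and Gabra6 together. They set Pax6 and Cntn2 apart less sharply than the ratios did. Zic1 correlated with Gabra6 at a Pearson r of 0.965 (Spearman 0.989) and with Cbln3 at 0.964 (0.945), and Cbln3 with Gabra6 at 0.937 (0.961). Leaving out the 2 libraries farthest from the median of the first gene gave 0.932, 0.929 and 0.972. Zic4 correlated with Cbln3 at 0.936 (0.873), with Zic1 at 0.915 (0.891) and with Gabra6 at 0.847 (0.847). Pax6 correlated with Zic1 at 0.831 (0.836), with Cbln3 at 0.778 (0.709) and with Gabra6 at 0.741 (0.774). Cntn2 correlated with Zic4 at 0.745 (0.818), with Zic1 at 0.676 (0.655), with Cbln3 at 0.635 (0.645) and with Gabra6 at 0.562 (0.629). Zic2 correlated with Gabra6 at only 0.215 and Reln with Cbln3 at 0.00992. These 45 correlations share libraries, depth and groups and are given as a description. Among 14289 tested genes with a mean of at least 1 CPM, those whose pattern was most like that of Zic1 were Dlgap1, Adcy1, Frrs1l, Dync1i1 and Gpm6a, with Pearson r of 0.966, 0.963, 0.959, 0.955 and 0.949 over 11 libraries. Most like Gabra6 were Adcy1, Plekhd1, Dbc1, Rgs8 and Rnf112, with 0.972, 0.971, 0.97, 0.966 and 0.966. In each of these genes MYC-Gfi1 replicate 2 was the highest library.

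Promoter sequences are shown for Zic1, Cbln3 and Gabra6, which with Zic4 were the most strongly correlated of the genes. They are also shown for Cntn2, which followed these less closely and varied widely in its ratio to Cbln3. Each is the stretch of 250 bases before a RefSeq gene start in GRCm38.p6, read on the minus strand, 5′ to 3′, and capitals mark the half-site TTGGC of the nuclear factor I (NFI) family on either strand (GCCAA on the other). Some RefSeq starts differ from the GENCODE positions given above. The Cntn2 window lies inside the GENCODE gene, and the windows of Cbln3 and Zic1 lie partly inside theirs. NFI factors are known in mouse granule neurons as regulators of the late genes, Gabra6 among them.
Zic1 promoter, chr9:91365769-91366018: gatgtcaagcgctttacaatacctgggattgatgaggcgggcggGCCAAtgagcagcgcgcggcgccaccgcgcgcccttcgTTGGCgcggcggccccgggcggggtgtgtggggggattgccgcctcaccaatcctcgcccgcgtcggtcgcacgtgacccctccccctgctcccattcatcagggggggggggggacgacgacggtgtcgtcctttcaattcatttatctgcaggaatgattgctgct
Cbln3 promoter, chr14:55884257-55884506: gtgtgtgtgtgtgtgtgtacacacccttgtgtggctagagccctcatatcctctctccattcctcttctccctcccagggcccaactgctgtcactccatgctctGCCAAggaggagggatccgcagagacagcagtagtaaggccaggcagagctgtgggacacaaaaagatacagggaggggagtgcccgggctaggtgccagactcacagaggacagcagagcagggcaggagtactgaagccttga
Gabra6 promoter, chr11:42321073-42321322: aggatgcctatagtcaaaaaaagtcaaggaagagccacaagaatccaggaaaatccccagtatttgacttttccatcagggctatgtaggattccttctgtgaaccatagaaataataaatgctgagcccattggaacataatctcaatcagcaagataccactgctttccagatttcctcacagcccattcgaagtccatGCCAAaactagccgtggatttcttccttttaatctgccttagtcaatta
Cntn2 promoter, chr1:132542941-132543190: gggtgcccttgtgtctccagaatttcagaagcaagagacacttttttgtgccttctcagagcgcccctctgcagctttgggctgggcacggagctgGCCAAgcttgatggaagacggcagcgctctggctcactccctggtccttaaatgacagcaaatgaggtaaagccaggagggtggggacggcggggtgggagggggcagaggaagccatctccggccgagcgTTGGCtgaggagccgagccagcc
NFI half-sites lay in all 4 of these windows. The 9 genes with a promoter entry had 11 windows, with no entry used for Zic2. The half-site lay in 6 of these 11 windows and in 41.5% of all 32851 promoter windows of the same length. The E-box CANNTG, which helix-loop-helix factors such as the products of Atoh1 and Neurod1 bind, lay in 9 of the 11 windows and in 66.2% of all windows. TGGGAA, the core bound by RBPJ, the DNA-binding partner of N1ICD, was found on neither strand in the 11 windows and in 21.6% of all windows. A match of letters in a window is a description and does not show that a factor binds there.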

How the data were processed

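RNA was extracted with TRIzol from freshly frozen cerebellar tumours, per the labels' protocols, and QuantSeq forward 3′ libraries were made with unique molecular identifiers added at second strand synthesis. STAR 2.4.1d, HTSeq 0.6.1 and the build mm10 are named in the submitters' processing notes. The sources used here do not give the collapse of identifiers or the strand setting. The authors deposited raw counts per gene symbol, 1 column for each of the 11 libraries, without normalization.

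Of 38406 genes, 15228 passed filterByExpr by group and entered one fit of all 4 groups with edgeR 4.0.16 (R 4.3.3, limma 3.58.1; TMM, glmQLFit robust, glmQLFTest). The fit had 7 residual degrees of freedom, a median of 3.21 prior ones and a common biological coefficient of variation of 0.562. Two-sided p-values were adjusted by Benjamini-Hochberg over all tested genes, separately for each comparison, and called under 0.05. Each SE was derived from the fold change and its F statistic. CPM are over TMM-scaled totals of the tested genes, and log2 CPM used a prior count of 2. Alternatives were RLE size factors, no filter, a replicate block, the compared groups alone, DESeq2 1.42.0 and leaving out each library. Where this left 1 library in a group, that library was assumed to vary like the other groups. The code was tested on simulated data. No pair of libraries in a group held the same counts within sampling noise, with chi-square values per degree of freedom of 20.9 to 126.

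The 10 genes and the lists were chosen with earlier results of these data known. In each list up to 3 called genes with the smallest p and 2 uncalled genes with the highest level were eligible to be named per comparison, and other list genes named were chosen after their values were seen. Gene positions are those of GENCODE for GRCm38, and promoters are from RefSeq. One early list gene is not reported here.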

Additional observations from a re-analysis of the deposited data

How the results depend on the processing

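The 10 genes gave 60 fold changes. RLE size factors and dropping the low-count filter changed no call and no sign among these, but the filter did among the listed genes. DESeq2 called 5, 3, 1, 1, 1 and 3 of the 10 in the N1ICD, S100b-cell against MYC-Gfi1, N1ICD against S100b-cell, N1ICD and S100b-cell against MYC-Otx2, and MYC-Otx2 against MYC-Gfi1 comparisons, in that order, where edgeR called 1, 0, 0, 0, 1 and 1, and its counts over all genes were 3217, 2118, 1302, 4599, 4198 and 2677 in place of 1754, 663, 185, 3315, 2727 and 832. Fitting the compared groups alone gave 15, 0 (3287 under an unadjusted p of 0.05), 83, 3167, 4622 and 365 genes and lost the Rbfox3 call (0 of the 10) and the Zic2 call between the MYC-Otx2 and MYC-Gfi1 tumours. With replicate number as a block the counts were 789, 102, 59, 2213, 1904 and 209, only Zic2 in the S100b-cell against MYC-Otx2 comparison was called (0 of the 10 in the N1ICD and MYC-Otx2 comparisons with MYC-Gfi1), and Pax6 in the MYC-Otx2 against MYC-Gfi1 comparison turned to 1.07. The numbers did not pair the libraries: 3 of 15 same-number correlations exceeded 0.1 (range -0.169 to 0.187), and 3 of 11 libraries correlated best with their own number.

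Leaving out single libraries turned 34 signs, 14 of them without MYC-Gfi1 replicate 2. Genes called ranged from 797 to 2214, 12 to 1995, 9 to 262, 1654 to 2775, 1192 to 1750 and 65 to 2170 in the same order, and the 10 from 0 to 4, 0 to 2, 0 to 0, 0 to 1, 0 to 1 and 0 to 2. Log2 fold changes that turned ranged as follows. N1ICD against MYC-Gfi1: Pax6 -4.65 to 5.80, Zic1 -6.60 to 0.27, Zic4 -3.38 to 0.098, Reln -3.16 to 0.14, Cbln3 -9.99 to 1.09, Gabra6 -9.15 to 0.38. S100b-cell against MYC-Gfi1: Pax6 -4.25 to 4.42, Zic1 -5.31 to 1.27, Barhl1 -2.26 to 0.69, Cbln3 -6.84 to 2.24, Gabra6 -7.33 to 1.54. N1ICD against S100b-cell: Pax6 -3.41 to 4.42, Zic1 -2.69 to 0.42, Zic4 -0.82 to 1.10, Barhl1 -2.92 to 0.037, Cntn2 -4.31 to 0.14, Reln -1.10 to 2.10. N1ICD against MYC-Otx2: Pax6 -4.07 to 1.33, Zic4 -2.0 to 0.093, Barhl1 -0.91 to 0.17, Cntn2 -1.58 to 0.28, Reln -0.77 to 2.41. S100b-cell against MYC-Otx2: Barhl1 -0.48 to 2.58, Cntn2 -0.45 to 3.24, Reln -0.79 to 1.41. MYC-Otx2 against MYC-Gfi1: Pax6 -1.55 to 5.07, Zic1 -3.64 to 2.50, Zic4 -2.19 to 0.78, Cbln3 -4.45 to 4.95, Gabra6 -5.18 to 3.68. The cause was not tested. The N1ICD libraries were too shallow to show levels under about 1 CPM.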

Other observations

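Cntn2 was above 60 CPM in S100b-cell replicate 2 and in MYC-Gfi1 replicates 1 and 2, and at 6.00 CPM or less in the other 8 libraries. Some early granule genes, picked out after their values were seen, were high in some or all of the same 3 libraries. Pde1c, a phosphodiesterase, was at 129 CPM in S100b-cell replicate 2 and at 66.6 and 94.3 CPM in MYC-Gfi1 replicates 1 and 2, against at most 22.7 CPM elsewhere. Nhlh1 and Nhlh2, helix-loop-helix factors of newly born neurons, were at 32.0 and 39.2 CPM in S100b-cell replicate 2 and at 32.2 and 23.1 CPM in MYC-Gfi1 replicate 1. In MYC-Gfi1 replicate 2 they were at 0.871 and 7.84 CPM, and in every other library under 1.5 CPM. The mature gene Gabra6 was at 4.29 CPM in S100b-cell replicate 2, the highest of its group and rank 4 of all 11 libraries. It was at 0.933 CPM in MYC-Gfi1 replicate 1, rank 8 of 11. Uncx, a homeodomain factor, was at 50.2 CPM in S100b-cell replicate 2 and at 26.8 CPM in MYC-Otx2 replicate 3, against at most 8.57 CPM elsewhere.

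The Zic genes given here did not share a pattern. Zic5, which lies beside Zic2, had 41.6, 19.9 and 18.3 CPM in the N1ICD tumours, 53.1, 81.6 and 58.6 CPM in the S100b-cell group, 28.1, 38.9 and 35.5 CPM in the MYC-Otx2 tumours, and 125 and 34.9 CPM in the MYC-Gfi1 tumours. It was thus higher in MYC-Gfi1 replicate 1 than in replicate 2, where Zic1, Zic2 and Zic4 were all higher in replicate 2.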
